A study of Oryza sativa Indica Group with 226 samples.

Results

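Chromosome 11 of rice carried 56 probe sets, of 47 genes, whose level differed between the inbred varieties Minghui 63 and Zhenshan 97 and was repeatable among the recombinant inbred lines bred from them. They were chosen by measured values: each was annotated to exactly 1 gene on this chromosome, averaged 5 or more over all arrays (log2), differed by at least 1 between the parental means and had a correlation of at least 0.4 between the replicate 1 and replicate 2 arrays over the lines. These are 56 of 57194 probe sets other than controls, and 56 of the 720 chromosome 11 probe sets with that mean. The parental difference and the replicate correlation chose these members and are given only as a description.

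Shoots were taken from dark-grown seedlings 72 h after germination. The 110 recombinant inbred lines of Minghui 63 and Zhenshan 97 had 2 independent biological replicates each, and each parent had 3, so that 226 Affymetrix rice arrays were available. All seedlings were untreated indica rice, kept at 85% relative humidity throughout, with 48 h of soaking and the final growth at 25 °C and germination at 35 °C. The number of seedlings per array is not given in the sources used here, and no genotypes of the lines were used. In whole shoots, fewer cells of a type and less RNA per cell cannot be told apart.

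A recombinant inbred line comes from repeated selfing after a cross, so that at nearly every position it is fixed for the allele of one parent or the other. Genes that lie close together tend to be inherited as one piece, whereas genes far apart or on different chromosomes segregate independently. A transcript whose level depends on a variant at or near its own gene (cis regulation) therefore sorts the lines in the same way as its neighbours do, and a transcript set by a variant elsewhere (trans regulation) need not. Rice chromosome 11 is known for its many clusters of resistance genes, and its short-arm end shares a duplicated segment with the short-arm end of chromosome 12.

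Array medians ran from 4.77 to 5.07, and values from 1.16 to 14.35, all on the log2 scale. Close medians do not show that single probe sets are comparable between array sets. Whether the parent arrays differ as a set from the line arrays was not tested. Each marker gene was taken by its probe set with the highest mean. All 8 genes of a shoot marker list, among them genes of the light-harvesting complex and of chlorophyll synthesis, read above the range of the array's 17 Tag control probe sets, 2.55 to 4.63. So did 4 of 5 root genes and 1 of 5 endosperm genes. A further probe set of the shoot gene RBCS, at 2.97, lay within the Tag range. Levels of different probe sets cannot be compared, so no amount of root or endosperm RNA is read from this. The 2 array sets of the lines differed: by limma on the within-line differences, replicate 2 was called higher in 43.7% and lower in 48.5% of all tested probe sets. Among the members, 15 were called higher and 37 lower, with shifts from -1.56 to 1.70. The mean of both arrays was therefore used for each line, and results from single array sets are given where they differ.

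Of all 27735 probe sets with a mean of at least 5, 7.17% met the criterion on the parental difference, 7.56% that on the replicate correlation and 3.53% both. On chromosome 11 the 720 tested probe sets, of 617 genes, included 95 that met the first, 113 that met the second and 56 that met both, which is 7.78%. The other chromosomes held between 2.08% and 4.74%, and no test was made of this difference. Another 24 probe sets of chromosome 11 failed only on the mean. The members just inside the limit on the parental difference were LOC4350473 at 1.05 and LOC4350055 at 1.08, and LOC4349877 at 0.99 and LOC4350285 at 0.94 lay just outside it. For the replicate correlation, LOC4349866 at 0.41 and LOC9268937 at 0.43 were inside, and LOC4349652 at 0.39 and LOC4350650 at 0.36 were outside. For the mean, LOC4351029 at 5.03 and LOC4350343 at 5.08 were inside, and LOC4349853 at 4.99 was outside.

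Members were higher in either parent about equally often, 25 probe sets in Minghui 63 and 31 in Zhenshan 97. The size of the parental difference ran from 1.05 to 6.69 with a median of 1.74 on the log2 scale, and the replicate correlation from 0.41 to 0.97 with a median of 0.74. The lower parent lay within the range of the Tag controls for 17 members, so the lower level of these is near the floor of the array. The 3 arrays of one parent overlapped or met the 3 of the other for 2 members, LOC4350055 and LOC4350788. Only 3 member genes have a name in common use: CHS, chalcone synthase, which makes the first committed intermediate of flavonoids; rca, Rubisco activase, which keeps the carbon-fixing enzyme of the chloroplast active; and STLP5. The other 44 are known here by their gene identifiers. For genes with several member probe sets, the one with the highest replicate correlation stands for the gene.

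The largest difference was at LOC4350662, gene 1231 of the 1891 protein-coding genes of the chromosome in gene order. Its Minghui 63 arrays read 11.87, 11.84 and 11.77 and its Zhenshan 97 arrays 5.07, 5.45 and 4.90. Its lines ran from 4.68 to 10.84 with a median of 8.02, so that no line reached the Minghui 63 level. LOC4350706, gene 1292, was next among genes higher in Minghui 63, at 10.58, 10.58 and 10.30 against 5.61, 5.41 and 5.70. Its lines ran from 4.87 to 11.73 with a median of 11.08, and 74 of the 110 lay above both parental means. Whether the parent arrays are offset from the line arrays was not tested, which limits every count here of lines beyond the parents. LOC4350580, LOC9266242 and LOC4350852 followed, with Minghui 63 higher by 3.29, 3.25 and 3.21.

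In the other direction LOC4350295, gene 857, read 2.39, 2.78 and 3.69 in Minghui 63 and 8.12, 7.82 and 7.77 in Zhenshan 97. Its lines ran from 4.53 to 8.98 with a median of 6.69, so every line lay above the 3 Minghui 63 arrays. LOC4350821, gene 1430, read 5.44, 4.94 and 5.34 against 9.49, 9.37 and 10.41. LOC4350923 and LOC4350516, described below as leads of blocks, were lower in Minghui 63 by 3.90 and 3.79. LOC4350406, gene 953, was lower by 2.64, with Minghui 63 arrays at 9.89, 9.67 and 9.87 and Zhenshan 97 arrays at 12.47, 12.36 and 12.52. For LOC4350406 the lines fell into 2 groups at the parental levels, 34 lines around 12.23 and 76 around 9.97.

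**Figure D1:**
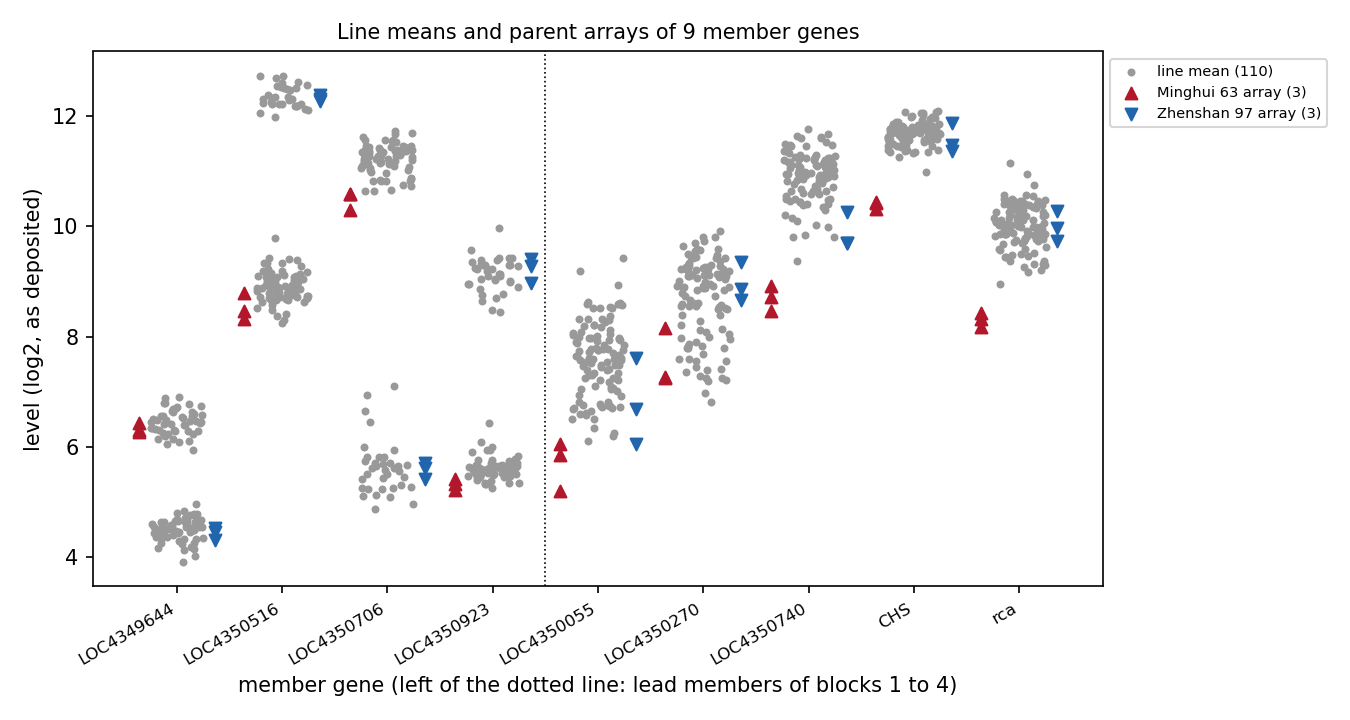
Levels (log2) of 9 member genes, with each grey point the mean of 1 of 110 lines and triangles the 3 arrays of each parent. For the 4 lead members the lines form 2 separate groups, whereas the 5 genes on the right spread without a gap. All lines of CHS, rca, LOC4350740 and LOC4350055 lie above the Minghui 63 arrays.

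The share of lines on the Minghui 63 side was first taken at the midpoint of the parental means. It ran from 0% to 95.5% over the members with a median of 56.4%, against a median of 47.7% over all 978 probe sets of the array that met the same value criteria. A two-sided exact binomial test against equal shares, with Benjamini-Hochberg adjustment over those 978, called 40 of the 56 members, 23 with more lines on the Minghui 63 side and 17 with more on the Zhenshan 97 side. The background was 51.2%, of which 19.1% had more lines on the Minghui 63 side and 32.1% on the Zhenshan 97 side. Linked members share their lines, so these counts are not counts of independent loci. The parental midpoint also missed the line values of some members: 13 probe sets of 8 genes had a share under 10% or over 90%, and the line groups there did not lie at the parental levels. An offset between parent and line arrays would move the midpoint shares and their calls, and was not tested.

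A second cut was therefore set between the 2 clusters of each member's own line means. With it the share ran from 29.1% to 72.7% with a median of 60%, and the test called 25 of the 56 members, against a background of 13.7%. Of these, 23 had more lines on the Minghui 63 side and 2 on the Zhenshan 97 side. The 2 were LOC4350270 and LOC4350740, which are among the out-of-step genes below. In 14 of the 47 genes the 2 clusters took up over 90% of the variance among line means. The cut splits the line means in 2 also where they form no separate groups, as for CHS and rca, at 58.6% and 61.9% of the variance. There the share tends to the middle by construction and need not be a share of parental alleles.

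Among the 41 in-step genes, those with a median r of at least 0.2 with their nearest members, the cluster share was lowest near the start of the chromosome and highest in the middle; the out-of-step genes LOC4350740 at 29.1%, LOC4350270 at 30.9% and CHS at 37.3% lie in the middle and were lower still. Over the first 7 member genes, up to gene 374, it lay between 38.2% and 51.8%, with none called unequal and 1 of 7 at an unadjusted p under 0.05. At LOC4350271, gene 837, it was 66.4%, and from there to LOC4350788, gene 1393, it stayed between 60% and 72.7% for every in-step gene except LOC4350587 at 53.6%. The highest value was at LOC4350599, gene 1161, with 80 of 110 lines on the Minghui 63 side (adjusted p = 0.000141). From LOC4350852 at gene 1466 to LOC4350923 at gene 1536 it lay between 50.9% and 65.5%, and at the 8 genes of block 4 from gene 1654 on between 49.1% and 60%, with none called and 1 of 8 at an unadjusted p under 0.05. The last member, the out-of-step gene rca, had 43.6% (adjusted p = 0.424). For in-step genes the Minghui 63 side was thus over-represented among the lines across the middle of the chromosome, and no unequal share was detected at its ends. The test counts the 110 lines as independent, although 10 pairs of lines shared at least 85% of their cluster calls off chromosome 11. Cluster shares were not recomputed with 1 line of each such pair. At the ends the clusters were clear for some genes, such as LOC4349541 and LOC4351038 at 97.6% and 94.2% of the variance. For others, such as LOC9269178 and LOC4351146 at 66.3% and 70.2%, they were not, and a share near the middle there says little.

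**Figure D2:**
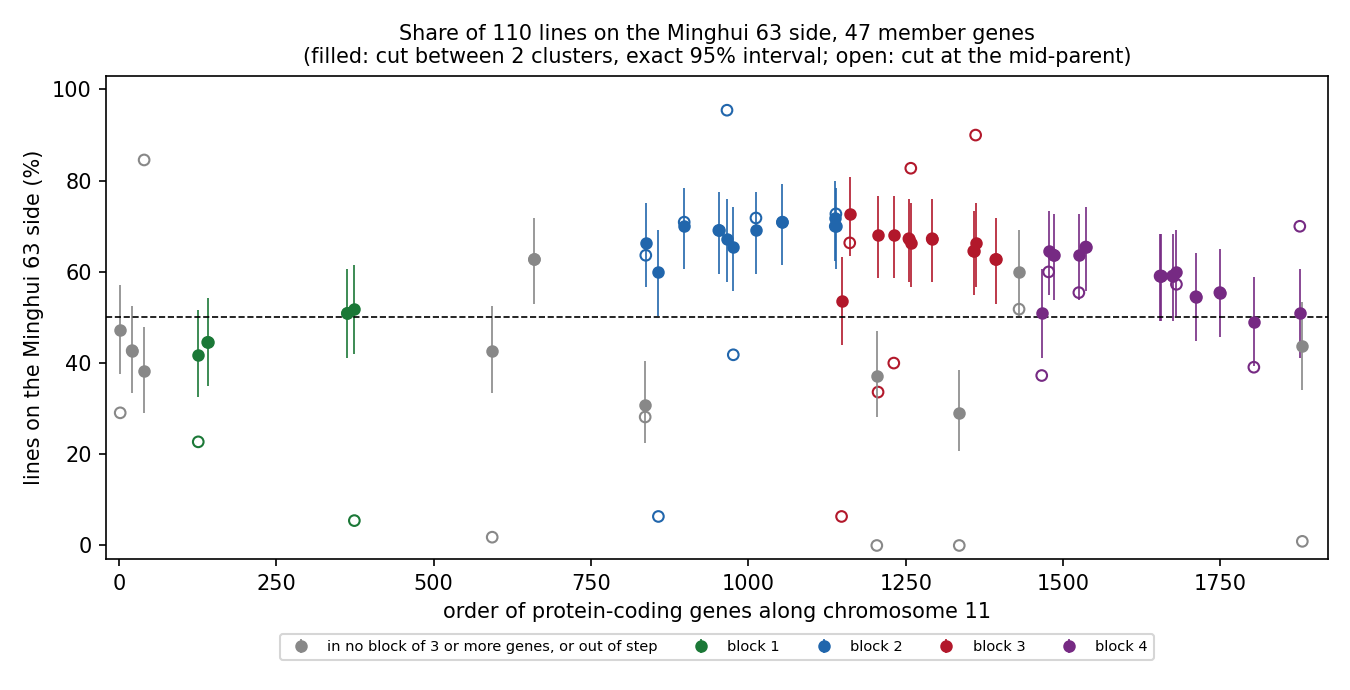
Share of 110 lines on the Minghui 63 side (%) for 47 member genes against gene order, with filled points and exact 95% binomial intervals for the cut between 2 clusters and open points for the cut at the parental midpoint. Filled points of in-step genes rise from between 38.2% and 51.8% over the first 7 genes to 72.7% at gene 1161 and fall again, while open points scatter from 0% to 95.5%.

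Gene by gene, the cuts agreed for LOC4350516, LOC4350706 and LOC4350923, whose line groups lay on either side of the parental midpoint. LOC4350516 gave 78 of 110 lines, 70.9% (95% exact interval 61.5 to 79.2), with either cut (adjusted p = 3.71e-05 for the midpoint). LOC4350706 gave 67.3% (57.7 to 75.9, adjusted p = 0.000894) and LOC4350923 65.5% (55.8 to 74.3, adjusted p = 0.00349), also with either cut. These 3 genes had no or nearly no line whose 2 arrays lay on opposite sides of the cluster cut, 0, 1 and 0 lines in turn. The 3 members with the highest midpoint share, LOC4350416 at 95.5%, LOC4350759 at 90% and LOC9269178 at 84.5%, had cluster shares of 67.3%, 66.4% and 38.2%. The 3 with the lowest, CHS and LOC4350740 at 0% and rca at 0.91%, had cluster shares of 37.3%, 29.1% and 43.6%; a share of 0 of 110 lines has a 95% exact upper bound of 3.3%. LOC4350295 had a midpoint share of 6.4% and a cluster share of 60%, and LOC4350587 6.4% and 53.6%. LOC4350662 had 40% and 68.2%, and its called direction thus rests on the cluster cut.

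To compare how members sorted the lines, each gene's line means were signed so that its Minghui 63 side was high, and Pearson's r was taken over the 110 lines. Because the lines fall into 2 clusters for many members, these r values are descriptions with no test. The similarity of 2 in-step genes fell with the number of genes between them. The median r was 0.72 over 21 pairs at most 20 genes apart, 0.74 over 27 pairs 21 to 50 genes apart and 0.69 over 47 pairs 51 to 100 apart. It was 0.54 from 101 to 200 genes, 0.37 from 201 to 400, 0.09 from 401 to 800 and -0.01 beyond that. A gene was called out of step where its median r with the 3 nearest member genes on each side was under 0.2, which held for 6 of the 47. The remaining 41 were joined into blocks while consecutive genes had r of at least 0.5, and 4 blocks had 3 or more genes, 37 genes in all.

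**Figure D3:**
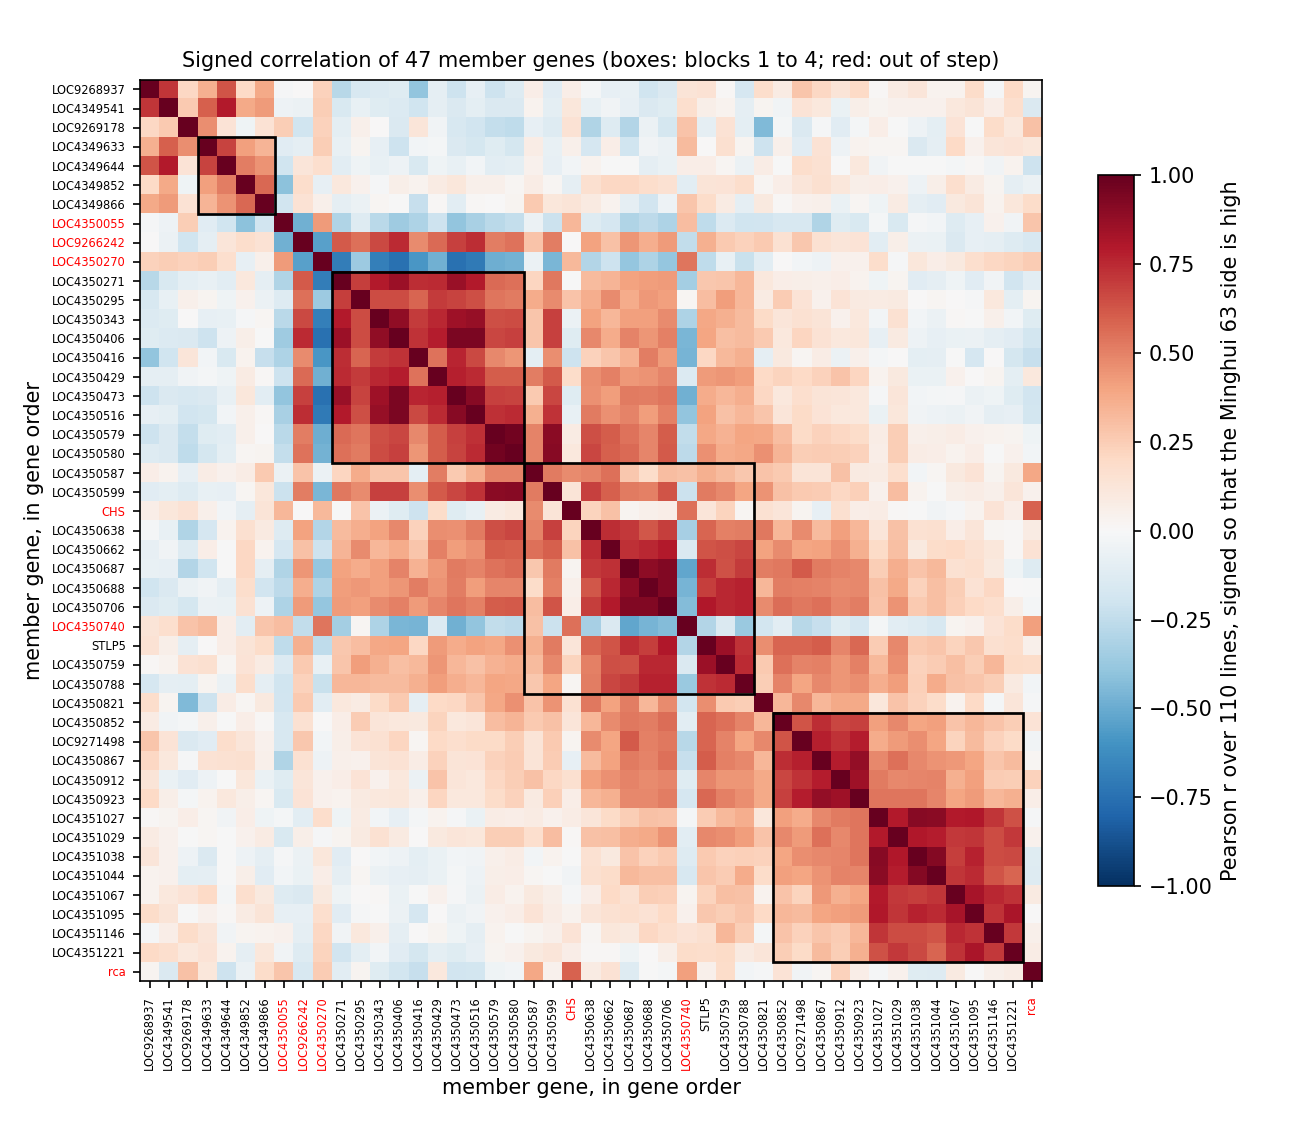
Pearson r over 110 lines between the 47 member genes in gene order, on a colour scale from -1 (blue) to 1 (red), with each gene signed so that its Minghui 63 side is high. The 4 outlined blocks of 4, 10, 10 and 13 genes lie on the diagonal, and LOC4350055, LOC4350270 and LOC4350740 (red labels) appear as blue stripes through them.

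Block 1 held 4 genes from LOC4349633 (gene 126) to LOC4349866 (gene 374), with a median pairwise r of 0.48. Its lead, the gene with the highest replicate correlation, was LOC4349644, gene 141. That gene read 6.31, 6.27 and 6.44 in Minghui 63 and 4.45, 4.53 and 4.31 in Zhenshan 97, and its lines ran from 3.91 to 6.91 with a median of 4.76. The lines formed 2 groups, 49 around 6.45 and 61 around 4.50. LOC4349541, gene 21, lay outside the block by the joining rule because LOC9269178 stands between them, yet it had r = 0.80 with the lead and put 100 of 110 lines on the same side. In 27 lines all 4 genes of the block were on the Minghui 63 side, in 33 all were on the Zhenshan 97 side, and 50 lines were mixed.

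Block 2 held 10 genes from LOC4350271 (gene 837) to LOC4350580 (gene 1139) and had the highest median r of the 4, 0.70. Its lead LOC4350516, gene 1054, read 8.46, 8.78 and 8.32 in Minghui 63 and 12.38, 12.26 and 12.30 in Zhenshan 97. Its lines ran from 8.25 to 12.73 with a median of 9.04. They fell into 32 lines around 12.35 and 78 around 8.91, with a gap between. LOC4350406 placed 109 of 110 lines as its neighbour LOC4350343 did, and LOC4350579 and LOC4350580, adjacent genes, had the highest r of all pairs, 0.97. Of the 10 genes, 3 were higher in Minghui 63 and 7 in Zhenshan 97, and all 10 were on the Minghui 63 side in 49 lines, on the Zhenshan 97 side in 18, and 43 lines were mixed.

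Block 3 held 10 genes from LOC4350587 (gene 1148) to LOC4350788 (gene 1393), with a median r of 0.65 and LOC4350706 as lead. LOC4350687, LOC4350688 and LOC4350706 put 109 of 110 lines on the same side, pair by pair of neighbours. STLP5, gene 1358, read 9.0, 9.11 and 9.04 in Minghui 63 and 6.48, 5.92 and 6.75 in Zhenshan 97, and its lines ran from 5.72 to 8.85 with a median of 8.21. STLP5 sorted 71 lines to the Minghui 63 side (64.5%, adjusted p = 0.0065) and had r = 0.85 with the neighbouring LOC4350759. The boundary with block 2 was weak: LOC4350599 had its highest r, 0.91, with LOC4350580 of block 2, and 0.63 with the lead of its own block. LOC4350788 rested on few arrays, since one Zhenshan 97 array read 7.48 and the others 6.0 and 5.21. Its midpoint share of 62.7% was 42.7% without that array and 30.9% with replicate 1 arrays of the lines alone.

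Block 4 held 13 genes from LOC4350852 (gene 1466) to LOC4351221 (gene 1876), with a median r of 0.54. Its lead LOC4350923, gene 1536, read 5.42, 5.32 and 5.22 in Minghui 63 and 9.27, 8.97 and 9.41 in Zhenshan 97, and its lines ran from 5.26 to 9.96 with a median of 5.66. They fell into 38 lines around 9.13 and 72 around 5.61. The first 5 genes and the last 8 were joined only through r = 0.53 between LOC4350923 and LOC4351027, which lie 118 genes apart and put 87 of 110 lines on the same side. Within the last 8 genes, LOC4351038 and LOC4351044 had r = 0.92, and LOC4351095 and LOC4351067 had r = 0.83. LOC4350821, gene 1430, stood between blocks 3 and 4 with r of 0.24 and 0.33 to its neighbours. Its share of 51.8% was 27.3% with replicate 2 arrays alone, and its arrays of replicate 2 were higher by 1.70 than those of replicate 1.

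The leads of the blocks were then compared line by line. The leads of blocks 2 and 3 put 88 of 110 lines on the same side, 80% (exact interval 71.3 to 87.0), and so did those of blocks 3 and 4. Blocks 2 and 4 shared 68 lines, 61.8% (52.1 to 70.9). Block 1 shared 51, 53 and 59 lines with blocks 2, 3 and 4, or 46.4%, 48.2% and 53.6%, with exact intervals that overlap. Read in gene order, the 4 leads stayed on one side in 34 lines, changed side once in 50, at 2 places in 25 and at 3 places in 1. The most frequent combination, in 29 lines, was the Zhenshan 97 side at block 1 with the Minghui 63 side at the other 3 blocks. All 4 leads were on the Minghui 63 side in 24 lines and on the Zhenshan 97 side in 10. Over the 41 in-step genes, single lines were on the Minghui 63 side at between 2.4% and 97.6% of genes with a median of 65.9%, with 13 lines above 90% and 7 below 10%.

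**Figure D4:**
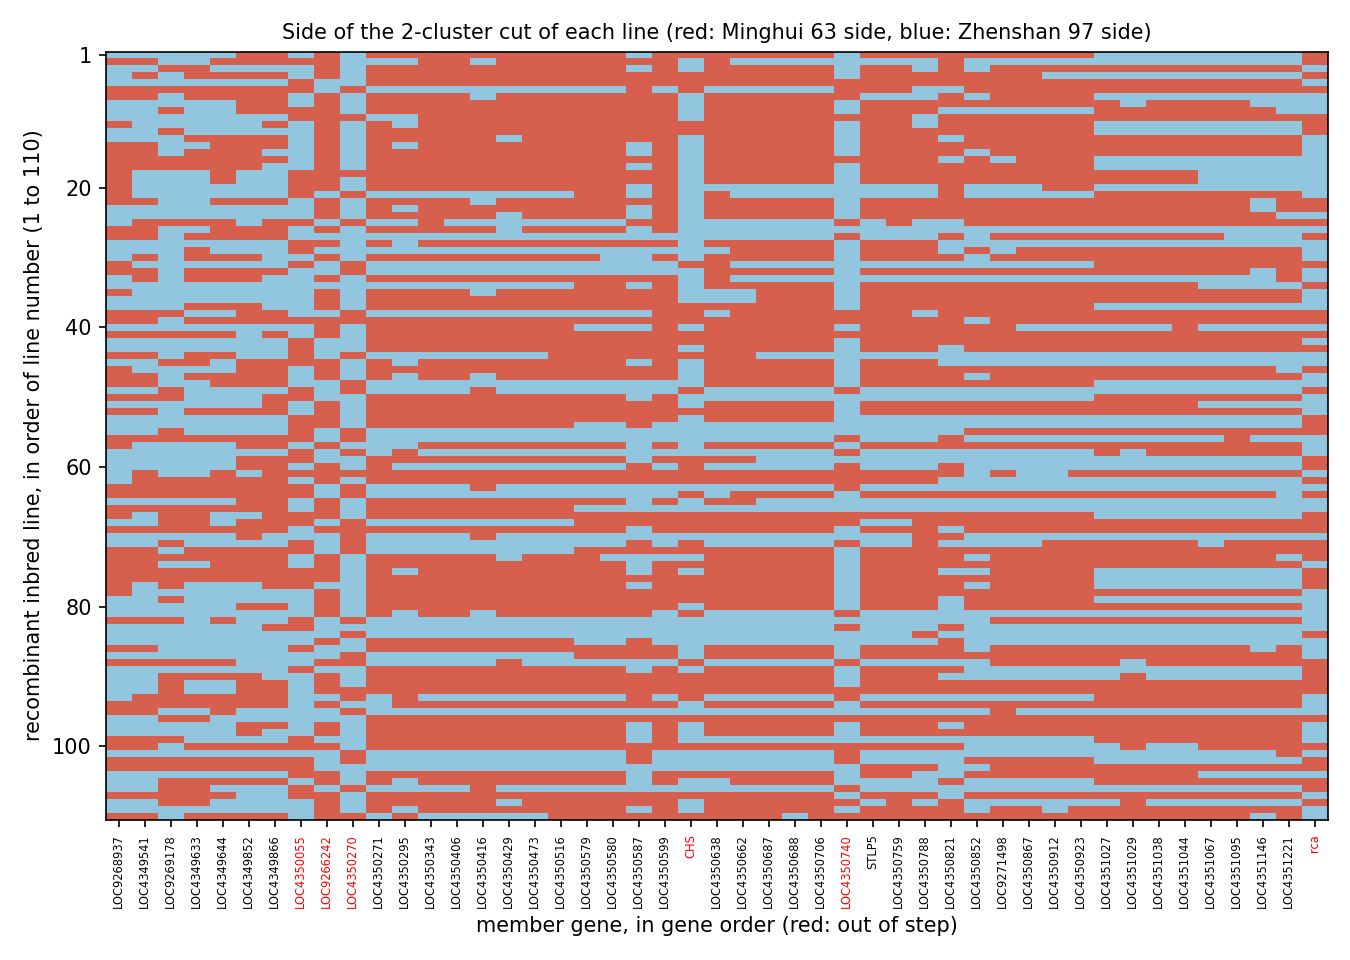
Side of the 2-cluster cut for each of 110 lines (vertical axis, in order of line number) at 47 member genes in gene order, red for the Minghui 63 side and blue for the Zhenshan 97 side. Runs of 1 colour extend over neighbouring genes, with 34 lines on one side at all 4 block leads, and the columns of LOC4350270 and LOC4350740 show the opposite colour to their neighbours in most lines.

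To find which transcripts moved with each block, the level of every tested probe set in a line's replicate 2 array was fitted on the lead's level in that line's replicate 1 array with limma, with Benjamini-Hochberg adjustment over 27735 probe sets. The effect is given as the log2 difference over the distance between the lead's line groups, Minghui 63 side minus Zhenshan 97 side. The leads of blocks 1 to 4 were followed by 30, 88, 67 and 39 probe sets, a background of 0.108%, 0.317%, 0.242% and 0.141%. With the replicate numbers exchanged they were followed by 52, 219, 111 and 60, and 30, 71, 60 and 38 were called in both directions. Among the 55 other members, 4, 23, 27 and 14 followed, of which 4, 21, 25 and 14 kept the sign of their parental difference. Among the 664 tested chromosome 11 probe sets that were not members, 8, 27, 13 and 11 followed. Chromosome 11 held 12, 50, 40 and 25 of the called probe sets out of 719 tested. The other chromosomes held 4, 2, 1 and 1 out of 16273, and 13, 35, 25 and 12 had no chromosome in the annotation. Of the 47 member genes, 37 followed at least 1 of the 4 leads and 22 at least 2. Members were chosen for repeatable levels, and blocks were joined by r over these same lines. That members followed the lead of their own block is therefore partly built in.

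The fits within blocks describe effect sizes, since the blocks were joined by r over the same lines. Within block 2, LOC4350406 was lower by 2.03 (SE 0.09, limma adjusted p = 1.98e-40) on the Minghui 63 side of LOC4350516, beside a parental difference of -2.64. LOC4350580 was higher by 1.43 (SE 0.17, limma adjusted p = 1.20e-10), beside a parental difference of 3.29. LOC4350295 was lower by 1.15 (SE 0.18, limma adjusted p = 3.44e-06), although its parents differed by -4.95. The lines thus showed a much smaller difference than the parents at LOC4350295, and its replicate 2 arrays were lower by 1.02 than its replicate 1 arrays. In block 3, LOC4350662 was higher by 2.96 (SE 0.23, limma adjusted p = 8.13e-20) on the Minghui 63 side of LOC4350706, beside a parental difference of 6.69. STLP5 was higher by 1.70 (SE 0.15, limma adjusted p = 1.72e-17), beside 2.67. In block 4, LOC4350852 was higher by 0.96 (SE 0.12, limma adjusted p = 2.15e-09) on the Minghui 63 side of LOC4350923, beside 3.21. LOC4351221, the last gene of that block, did not pass, at 0.59 (SE 0.18, limma adjusted p = 0.576).

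Transcripts of chromosome 11 that were not members also followed. The 3 nearest to the leads of blocks 2, 3 and 4 in this respect were LOC4350509 (gene 1047), LOC4350731 (gene 1320) and LOC4350883 (gene 1502). Their side differences were -1.71 (SE 0.08), -1.24 (SE 0.07) and -0.91 (SE 0.05), and their parental differences of -0.91, -0.60 and -0.82 lay under the limit of 1. For LOC4350509 and LOC4350731 the lines thus differed by more than the parents. The lead of block 1 was followed by LOC4349771 (gene 278), at -0.53 (SE 0.08), and by APG8D (gene 3), an ATG8-type autophagy gene, at 0.44 (SE 0.07).

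The few followers on other chromosomes were unevenly placed. Of the 4 that followed the block 1 lead, 3 were genes of chromosome 12. They were LOC4351341 (gene 117 there, -1.67, SE 0.10, limma adjusted p = 5.02e-27), LOC4351343 (gene 118, 0.87, SE 0.07, adjusted p = 4.83e-19) and LOC4351246 (gene 16, -1.37, SE 0.14, adjusted p = 4.12e-13). Their parental differences were -1.43, 1.14 and -2.04, of the same sign. In the same fit the other members of block 1 differed by 1.22 (LOC4349633), -0.68 (LOC4349852) and 0.24 (LOC4349866, not called). These genes lie near the chromosome 12 end that is duplicated on chromosome 11, and whether their probe sets also match the chromosome 11 copies was not tested. The fourth was Dhn1, a dehydrin gene of chromosome 2, at -0.65 (SE 0.10, limma adjusted p = 2.32e-06). LOC4344073 of chromosome 7, with Minghui 63 lower by 4.58, followed the leads of blocks 3 and 4 at -2.17 (SE 0.34) and -2.06 (SE 0.34). With replicate 1 and 2 exchanged, its limma adjusted p-values were 0.142 and 0.0442, so only the second was called both ways. The other followers of block 2 on other chromosomes, LOC4326014 and LOC4352463, were lost with the exchange, at limma adjusted p-values of 0.415 and 0.242.

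**Figure D5:**
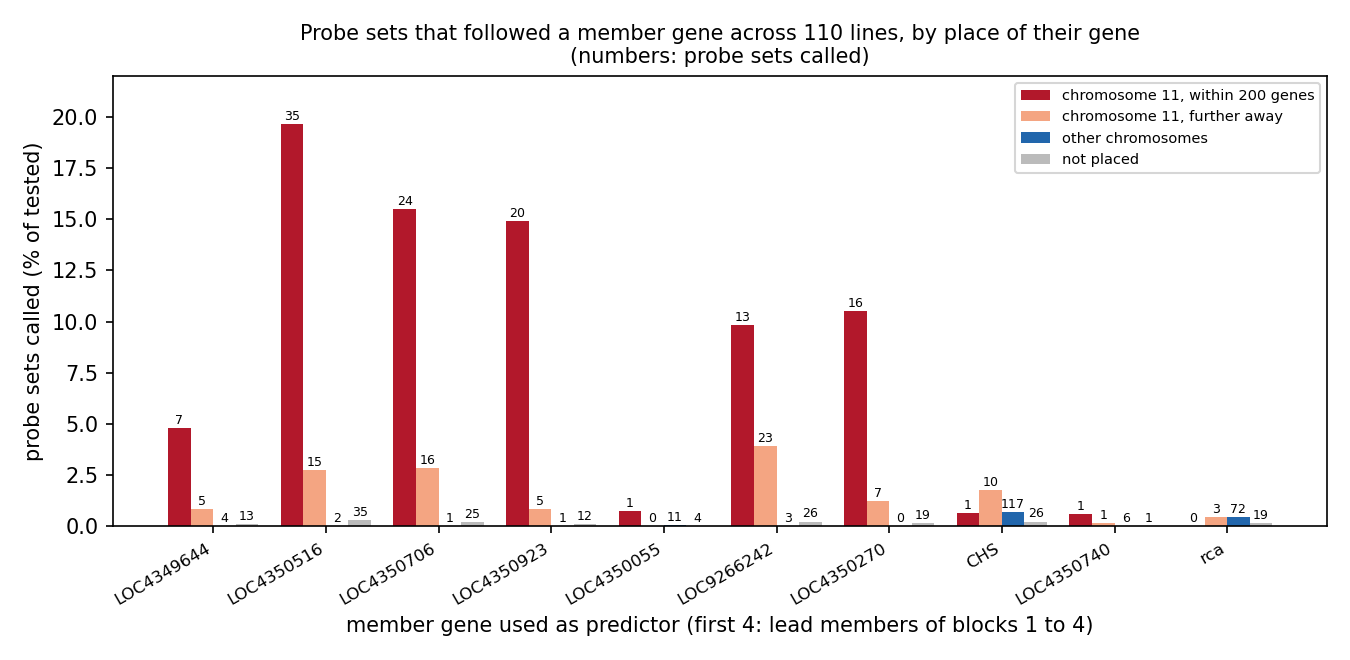
Probe sets called by limma as following each of 10 member genes, as a percentage of those tested at 4 places, with the number called above each bar. For the 4 block leads on the left, 7, 35, 24 and 20 probe sets lie on chromosome 11 within 200 genes, whereas for CHS and rca 117 and 72 lie on other chromosomes.

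The 6 out-of-step genes differed among themselves in what they followed. Of these, 3 had a negative median r with their neighbours, LOC4350270 at -0.45, LOC4350740 at -0.40 and LOC4350055 at -0.25, and 3 were near 0, rca at 0.05, LOC9266242 at 0.16 and CHS at 0.17. On the other chromosomes 116 of 495 genes that met the same value criteria were out of step. These genes were picked by their r with neighbours over the same lines. That they did not follow a neighbouring gene or lead, or followed it in reverse, is therefore partly built in. The fits of these genes on neighbours or leads below describe effect sizes, and their p-values are no separate support.

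LOC4350270, gene 836, is the direct neighbour of LOC4350271, the first gene of block 2. It read 7.25, 7.27 and 8.16 in Minghui 63 and 9.35, 8.67 and 8.87 in Zhenshan 97, and its lines ran from 6.82 to 9.91 with a median of 8.89. Its line groups, 34 lines around 7.70 and 76 around 9.12, lay near the parental levels, but the lines of the block 2 Minghui 63 side held the high Zhenshan 97 level. It had r = -0.69 with LOC4350271 and -0.71 with LOC4350516, and only 13 of 110 lines were on the same side for it and LOC4350271. On the Minghui 63 side of LOC4350516 it was higher by 1.14 (SE 0.13, limma adjusted p = 7.24e-12), opposite to its parental difference of -1.40. As a predictor it was followed by 43 probe sets (0.155%), 23 on chromosome 11 and 19 with no chromosome in the annotation. With replicate numbers exchanged the total was 765.

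LOC4350740, gene 1335, lies inside block 3 and was also reversed. It read 8.71, 8.47 and 8.91 in Minghui 63 and 9.69, 9.69 and 10.25 in Zhenshan 97, but its lines ran from 9.37 to 11.77 with a median of 10.94. Of the 110 lines 106 lay above both parental means, and an offset between parent and line arrays was not tested. It was higher by 0.41 (SE 0.09, limma adjusted p = 0.0136) on the Minghui 63 side of LOC4350706, against a parental difference of -1.18. Its r was -0.44 with LOC4350706 and 0.55 with CHS, its highest. It was followed by 10 probe sets (0.0361%), 2 on chromosome 11 and 6 on other chromosomes, of which 1 was called in both directions. With the exchange the total was 70.

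LOC4350055, gene 593, stands alone in a stretch with few members, 219 genes after LOC4349866 and 67 before LOC9266242. It read 6.06, 5.85 and 5.20 in Minghui 63 and 6.06, 6.69 and 7.61 in Zhenshan 97, so the parental arrays met. Its lines ran from 6.12 to 9.43 with a median of 7.61, and 90 lay above both parental means. On the Minghui 63 side of LOC9266242 it was higher by 0.78 (SE 0.13, limma adjusted p = 1.39e-05), again opposite to its parental difference. It was followed by 17 probe sets (0.0613%), 1 on chromosome 11 and 11 on other chromosomes, 2 of the latter also with the replicates exchanged, when the total was 151.

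LOC9266242, gene 660 in this order and listed as a pseudogene, was out of step only because its nearest neighbours included LOC4350055 and LOC4350270. It read 7.71, 7.39 and 8.03 in Minghui 63 and 4.39, 4.09 and 4.89 in Zhenshan 97. Its lines ran from 3.87 to 8.04 with a median of 7.10, in 69 lines around 7.30 and 41 around 4.45. It had r of 0.61 and 0.55 with LOC4350271 and LOC4350295, and 0.74 with LOC4350516, 97 of 110 lines on the same side. It was followed by 66 probe sets (0.238%), 36 on chromosome 11 and 3 on other chromosomes, with none of the 3 called in both directions, and by 131 with the exchange.

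When each gene's sign was taken from its correlation with the nearest block lead instead of from its parents, LOC4350055, LOC4350270 and LOC4350740 turned and LOC9266242 joined its neighbours. Only CHS and rca then remained out of step. This choice of sign was added after the correlations were seen, and it raises each gene's r with one neighbour by construction.

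CHS, gene 1204, lies between LOC4350599 and LOC4350638 of block 3. It read 10.44, 10.32 and 10.42 in Minghui 63 and 11.36, 11.48 and 11.87 in Zhenshan 97, and its lines ran from 10.99 to 12.08 with a median of 11.69. All lines lay above the 3 Minghui 63 arrays, and 85 lay above both parental means. It did not follow the leads of blocks 2 or 3, at 0.04 (SE 0.05, limma adjusted p = 0.806) and 0.01 (SE 0.05, adjusted p = 0.996). Its r with LOC4350638, only 2 genes away, was 0.22. Its local r of 0.17 was no longer under the limit with 2 neighbours on each side, with Spearman's rho or with replicate 1 arrays alone. The results for CHS rest on 1 probe set, with a replicate correlation of 0.44.

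The rca gene, gene 1880, is the last member on the chromosome, and its local r rests on 3 neighbours. It read 8.31, 8.17 and 8.43 in Minghui 63 and 9.97, 9.74 and 10.27 in Zhenshan 97, and its lines ran from 8.95 to 11.15 with a median of 10. Every line lay above the 3 Minghui 63 arrays, and 56 lay above both parental means. Its r with LOC4351221, 4 genes away, was 0.08, and none of the 4 leads was followed by it. Its 4 member probe sets correlated alike: the other 3 had r between 0.89 and 0.97 with the representative.

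CHS and rca were each other's most similar member, with r = 0.59. In the fit on CHS, rca was lower by 0.33 (SE 0.06, limma adjusted p = 0.00046) on the side of low CHS. In the fit on rca, none of the 52 member probe sets of other genes was called, so CHS was not. The pair was picked by its r over these same lines. CHS was followed by 155 probe sets (0.559%), 11 on chromosome 11 and 117 on other chromosomes, of which 51 were called in both directions. With the replicates exchanged, CHS was followed by 829. The rca gene was followed by 98 (0.353%), 3 on chromosome 11 and 72 on other chromosomes, of which 69 were called in both directions, and with the exchange by 2395. The number of followers of these genes thus depended on which array set served as predictor. No other member was among the 3 for rca. These followers were spread over all chromosomes, with between 1 and 13 per chromosome for rca in both directions and 13 on chromosome 7.

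The transcripts nearest to rca were ISP of chromosome 7 (-0.28, SE 0.05, limma adjusted p = 5.50e-05), LOC4345439 of chromosome 8 (-0.31, SE 0.05, adjusted p = 0.000126) and LOC4342714 of chromosome 7 (-0.31, SE 0.05, adjusted p = 0.00027). Their parental differences were -1.44, -1.45 and -1.59, the same sign as that of rca. A probe set of RBCS, the small subunit of the enzyme that rca keeps active, also followed at -0.19 (SE 0.04, limma adjusted p = 0.00914). It read 10.02 on average in Minghui 63 and 12.19 in Zhenshan 97, and its lines ran from 11.25 to 12.70. RBCS belongs to the shoot marker list. Of the 14 probe sets of that list, 11 were lower in Minghui 63 than in Zhenshan 97 and 3 were higher, both of PHYA and 1 of CHLH. Among the 11 was an RBCS probe set within the range of the Tag controls, at 2.84 in Minghui 63 and 2.92 in Zhenshan 97. Every line lay above the Minghui 63 mean, as for rca, in 3 of the 14. Of the 13 tested, 2 followed rca, both of RBCS, and 10 did with the replicates exchanged. For CHS these counts were 2 and 1. The part of the shoot markers in this pattern was not tested. The nearest transcripts to CHS were LOC4335977 of chromosome 4 (-0.39, SE 0.07), LOC4339836 of chromosome 6 (-0.32, SE 0.06) and ISP (-0.27, SE 0.05), each at a limma adjusted p of 0.000411. LAC20, a laccase gene of chromosome 11, followed both CHS and rca, at -0.46 (SE 0.10) and -0.58 (SE 0.09).

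Several member probe sets of 1 gene mostly sorted the lines alike. Among the member genes 6 had more than 1 member probe set, and their line means had r of at least 0.89 with the representative in every gene but LOC4350473. At LOC4350473, gene 1012, one probe set was higher in Minghui 63 by 1.05 and the other lower by 1.21, and their line means had r = -0.90. Both followed LOC4350516, at 1.87 (SE 0.10) and -1.10 (SE 0.10). The 2 probe sets of this gene thus sorted the lines alike and in opposite directions, so its parental direction depends on the probe set. LOC4351146 had a non-member probe set of low mean, 4.50, with r = -0.75 to its member. LOC4349633 had one with a mean of 9.68 and r = -0.45. The other probe sets of CHS had r between 0.38 and 0.77 with its member and replicate correlations between 0.0015 and 0.25. LOC4351221, whose member differed by 1.40 between the parents, had non-member probe sets with means of 6.81 and 7.51 that differed by 0.11 and -0.097. Their r with the member was 0.80 and 0.60. Further probe sets of that gene differed by 0.87 and 1.02. LOC4350416 had a non-member probe set with a mean of 9.97, a parental difference of -0.09 and r = 0.77 to its member. Another 20 probe sets of member genes were not members, 12 failing on the mean, 13 on the parental difference and 12 on the replicate correlation, some on more than one.

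Resistance genes known on this chromosome could hardly be examined by name. Of 37 listed names 2 were in the annotation, with 3 probe sets. PIKM2, one gene of a blast resistance pair, had probe sets with overall means of 2.86 and 2.83, under the limit of 5, and the other name, PI1, was placed on chromosome 5 with a mean of 6.21. None was a member.

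Set beside the other chromosomes with the same value criteria, chromosome 11 had a median local r of 0.66, where the others had between 0.29 and 0.65, and 6 of 47 genes out of step. Its median midpoint share was 56.4% where the others had 28.6% to 50.9%, and its median cluster share 60% where the others had 42.7% to 56.8%. Chromosome 7, with 46 probe sets, had 16 of 42 genes out of step and a median local r of 0.29, and chromosome 12, with 39 probe sets, had 8 of 35 and 0.52. No test was made of these differences between chromosomes.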

How the data were processed

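Levels are log2 values as deposited by the authors, 1 per probe set and array. RMA and the package affy are named per the submitters' processing notes, with no settings stated. Columns were matched to samples by title. Of 57381 probe sets, 187 controls were left out. GEO's annotation of the array named 1 gene for 22436 probe sets, several for 95 and none for 34850. Identifiers and names came from the RefSeq table of assembly ASM3414082v1, and gene order from the start positions there. That assembly is of japonica rice and the samples are indica, so the order may differ locally. RMA shares information across arrays, and a sequence difference under a probe can look like a difference in level.

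The members and gene lists were chosen with earlier results of these data known. Named genes are those with a usable name, the first, lead and last gene of each block, out-of-step genes, the 3 highest and 3 lowest shares, the 5 largest parental differences each way, and the transcripts nearest to each predictor; LOC4349541, LOC4350473, LOC4351146 and a few neighbours, and the non-member chromosome 11 transcripts, were picked after their values were seen. Fits used limma 3.58.1 in R 4.3.3 at an adjusted p of 0.05, and the rest numpy and scipy in Python. On simulated data with the block 1 lead as predictor over 27735 probe sets, 49 of 50 transcripts at a slope of 0.25 were recovered and 50 of 50 at 0.5. The simulated noise was independent between probe sets and had only the within-line spread, so the real fits may recover fewer. The planned comparison of protein copies and motifs was not run, since no sequences were used here. The fits pair arrays of the same line, so same-numbered arrays of different lines were not treated as pairs.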

Additional observations from a re-analysis of the deposited data

How the results depend on the processing

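Raising the limit on the mean to 7 left 27 members and raising that on the parental difference to 1.5 left 37; leaving out single parent arrays gave 54 to 60. With the cut between clusters, 25 members in place of 40 had unequal shares; single line array sets gave 36 to 44 and a median share of 51.8% to 54.5%, and left-out parent arrays 38 to 42 and 54.1% to 57.3%. The cluster cut turned the shares of LOC9269178 (38.2%), LOC4349866 (51.8%), LOC4350295 (60%), LOC4350587 (53.6%), LOC4350662 (68.2%) and LOC4350852 (50.9%). LOC4350788 turned without replicate 2 of the lines (30.9%, against 90% without replicate 1) and without Zhenshan 97 replicate 1 (42.7%), and LOC4350821 without replicate 1 of the lines (27.3%, against 73.6% without replicate 2). Of 312 recomputed shares of the 26 named members, 282 kept direction and call, 18 lost and 3 gained the call, and 9 turned. Genes out of step were 5 to 11 with 1 line array set (11 without replicate 1), and 2 with signs from the nearest lead; single line array sets gave 4 to 5 blocks.

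The followers of the leads of blocks 1 to 4 were 52, 219, 111 and 60 with the replicates exchanged, 55, 152, 132 and 117 without a limit on the mean, and 13, 40, 24 and 10 with a mean of at least 7. With both replicates in 1 fit and the replicate block they were 55, 190, 144 and 75. Exchanged replicates gave 151 for LOC4350055, 131 for LOC9266242, 765 for LOC4350270, 829 for CHS, 70 for LOC4350740 and 2395 for rca. The cause of these differences was not tested. Leaving out 1 line of each pair with at least 95% of calls in common could not be run, as no pair reached it. A limit of 85%, chosen after seeing the data, was used instead. With it the median midpoint share stayed within the exact interval of the main result. The cluster shares were not recomputed with it. Moving both replicate numbers to a common mean leaves line means, and so shares, as they are. With 110 lines a share has an exact interval of nearly 20 percentage points, and levels near the Tag controls bound the parental differences of 17 members.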

Other observations

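Some lines were close to each other. Over 539 probe sets off chromosome 11, the 5995 pairs of lines shared a median of 64.7% of their cluster calls, and 10 pairs shared at least 85%, the highest 93.9%. On the 47 member genes of chromosome 11 these 10 pairs shared 87.2% to 97.9% of calls with a median of 92.6%, against a median of 55.3% over all pairs.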
